A study of Mus musculus with 11 samples.

Results

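Binding of the transcription factor Ets1 was compared between Foxp3-positive regulatory T (Treg) cells and Foxp3-negative CD4 T cells of the mouse, called CD4 below, with 1 chromatin immunoprecipitation sequencing (ChIP-seq) library for each. The authors' lists held 226148 Ets1 positions in Treg and 242086 in CD4, each a single base in mouse build mm9 with the authors' own score and fold enrichment. The 10000 positions with the highest score were taken from each list. A position was called common when a top position of the other list lay within 200 bp, and Treg-only or CD4-only when the other library's file held no position of any score within 1 kb. Of the 20000 top positions, 11556 fell into these groups: 4618 common positions counted from the Treg side, 4624 counted from the CD4 side, 1389 Treg-only and 925 CD4-only. The other 3993 positions of the Treg list and 4451 of the CD4 list lay in between and are described only beside the groups.

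Both kinds of cell came from lymph nodes and spleen of mice about 8 weeks old and were told apart in the sort by GFP, a green fluorescent protein that reports Foxp3. They were fixed with formaldehyde, and the same lot of Ets1 antibody was used on the sonicated chromatin of each. The labels used here name no strain, no genotype beyond the reporter and no number of animals per library. In the same study the related factor Elf1 was mapped in both cell types, Cbfb in Treg, and Foxp3 in Treg as 2886 intervals that the authors called on combined replicates. The lists report where a factor was found and not gene expression, so the labelled cell types could not be checked against marker genes.

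Ets1 and Elf1 belong to the ETS family, whose members share a DNA-binding domain and recognise related sequences built around a GGAA core. Ets1 is abundant in resting T cells, and mice that lack it have fewer Treg cells. Foxp3 is the forkhead transcription factor that defines Treg cells, and Cbfb is the partner of the Runx proteins that does not itself contact DNA. The comparison addresses whether the Ets1 landscape of Treg cells is already present in CD4 cells that lack Foxp3.

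Ranked by score, the strongest Ets1 positions were mostly common, and the positions found in 1 cell type alone lay more often toward the end of each list. Their median rank was 7864 for Treg-only and 7271 for CD4-only positions. Among the 1000 highest scores in Treg, 926 (92.6%, 95% interval 90.8 to 94.1) were common, 3 were Treg-only and 71 lay in between. Among ranks 9001 to 10000 the common share was 17.4% and the Treg-only share 35.8% (32.8 to 38.9). In CD4 the first 1000 ranks were 89.6% common with 10 CD4-only positions, and the last 1000 were 22.6% common and 18.9% CD4-only (16.5 to 21.5). The rule sets part of the fall in the common share, since a common position needs a partner within the first 10000 of the other list. Shares carry exact Clopper-Pearson 95% intervals, which cover counting error only. Each cell type had 1 library, so no difference had a replicate check and no test was made between Treg and CD4.

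**Figure D1:**
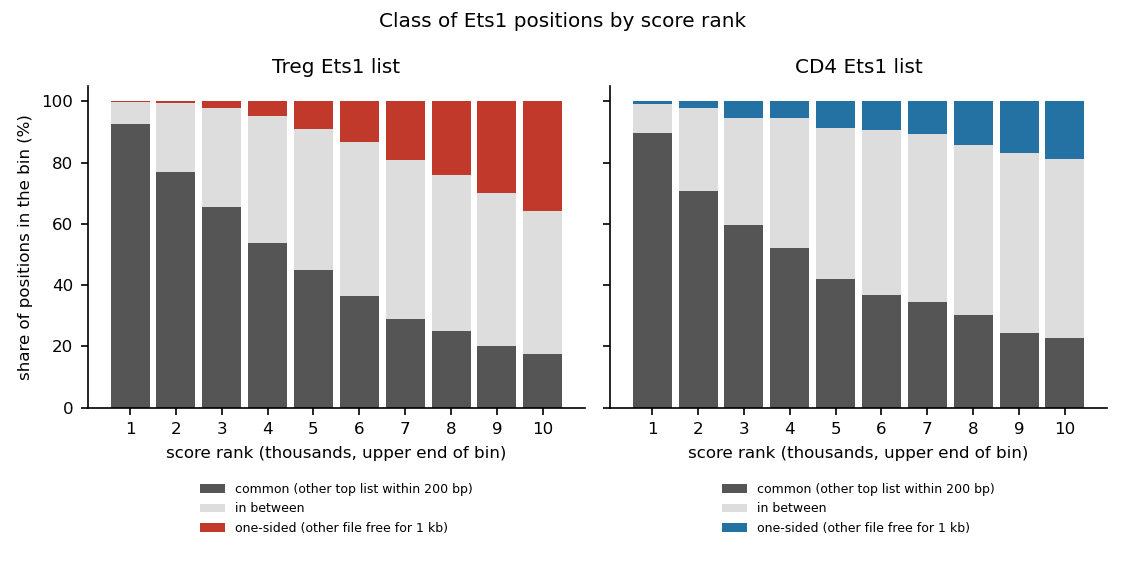
Each bar holds 1000 Ets1 positions of the Treg list (left) or the CD4 list (right), ordered by score rank along the horizontal axis, and the vertical axis gives the percent that was common, in between or found in that cell type alone. The common share fell from 92.6% to 17.4% in Treg and from 89.6% to 22.6% in CD4, while the share found in 1 cell type alone grew to 35.8% and 18.9%.

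Over the whole lists, Treg-only positions made up 13.9% (13.2 to 14.6) of the Treg list and CD4-only positions 9.25% (8.69 to 9.83) of the CD4 list. With 5000 positions per list the order turned, at 3.34% and 4.56%. When the fold enrichment ranked the positions, the lists overlapped much less, with 10.8% of the Treg list common, 59.6% Treg-only and 44.6% of the CD4 list CD4-only. The positions in between were mostly present in the other library at a lower rank: 2663 of 3993 (66.7%) in the Treg list and 3120 of 4451 (70.1%) in the CD4 list had a position of the other library within 200 bp. Its median rank was 25334 for the Treg list and 35305 for the CD4 list, well outside the first 10000. A Treg-only position lay at a median of 3477 bp from the nearest CD4 position, and a CD4-only position at 3870 bp from the nearest Treg position. At 531 Treg-only and 366 CD4-only positions the other library was free for more than 5 kb.

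The limits of the rule cut through a continuous range of values. The position at rank 10000 of the Treg list had a score of 6.14 and a fold enrichment of 8.66, and the next one outside had 6.14 and 7.32. In CD4 the scores at ranks 10000 and 10001 were both 11.5, with folds of 5.10 and 4.20. The common pairs furthest apart were 199 bp (from the Treg side) and 200 bp (from the CD4 side), and the first top positions outside were at 201 bp. The Treg-only position nearest to a CD4 position was 1002 bp away and the nearest CD4-only one 1001 bp, against 1000 and 999 bp for the furthest positions in between.

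Scores and folds were lower in the groups found in 1 cell type than in the common group. The median score was 9.80 for common positions in Treg and 6.64 for Treg-only positions, and in CD4 it was 20.1 for common and 13.5 for CD4-only positions. The median fold enrichment was 7.32 for common against 4.66 for Treg-only positions, and 10.6 for common against 5.72 for CD4-only positions. A fold below 4 was recorded at 563 Treg-only positions (40.5%), against 28.9% of the Treg list, and at 262 CD4-only positions (28.3%), against 13.8% of the CD4 list. The lowest fold among Treg-only positions was 0.182, so a high score did not always go with enrichment. Scores of the 2 libraries are not on 1 scale, since the number of reads and the control behind the fold were not given, and they only rank positions within a list.

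Treg-only and CD4-only positions differed in how often the related factor Elf1 lay beside them. An Elf1 position among the 10000 highest scores of the CD4 Elf1 library lay within 200 bp of 389 of 925 CD4-only positions (42.1%, 38.8 to 45.3), where 50.5% of the CD4 list had one. A top Treg Elf1 position lay within 200 bp of 22 of 1389 Treg-only positions (1.58%, 0.995 to 2.39), where 28.1% of the Treg list had one. Elf1 thus stood beside CD4-only Ets1 positions somewhat less often than over their list, and beside few Treg-only positions. The CD4-only share depended on the ranking and the list length, at 1.91% when positions were ranked by fold enrichment and 16.9% with 20000 positions per list, but stayed above the Treg-only share, at 0.134% and 0.729%. Common positions, counted from the Treg side, had Treg Elf1 at 45.8% (44.4 to 47.3) and CD4 Elf1 at 53.4% (52.0 to 54.9).

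The same contrast appeared with the Elf1 library of the other cell type. Treg Elf1 lay beside 255 CD4-only positions (27.6%, 24.7 to 30.6), against 41.2% of the CD4 list, although Treg Ets1 was missing there by the rule. CD4 Elf1 lay beside 7 Treg-only positions (0.504%, 0.203 to 1.04), against 31.9% of the Treg list. Elf1 of both cell types stood beside 227 CD4-only positions (24.5%), against 36.2% of the CD4 list, and beside 3 Treg-only positions (0.216%), against 22.9% of the Treg list. For scale, the share of all deposited Treg Ets1 positions with a top Treg Elf1 position was 2.67%, and that of all deposited CD4 Ets1 positions with a top CD4 Elf1 position was 3.84%. Treg-only positions, drawn from the top of their list, were at 1.58%. The whole Treg file includes that top list, which held 2809 of its 6042 positions with top Treg Elf1. Its 2.67% is therefore not a share of the lower ranks alone.

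Longer Elf1 lists left the same order. With all Elf1 positions whose FDR (false discovery rate, given as a q-value) was at most 0.01, Treg Elf1 lay beside 9.22% of Treg-only positions and CD4 Elf1 beside 74.7% of CD4-only positions. The corresponding shares were 50.1% of the Treg list and 77.3% of the CD4 list. Treg Elf1 at that limit lay beside 52.4% of CD4-only positions, against 66.8% of the CD4 list, and CD4 Elf1 beside 5.33% of Treg-only positions, against 53.5% of the Treg list. No Elf1 position of any score in either cell type lay within 200 bp of 1143 Treg-only positions (82.3%, 80.2 to 84.3), against 31.8% of the Treg list. Elf1 was likewise missing at 140 CD4-only positions (15.1%, 12.9 to 17.6), against 12.1% of the CD4 list, and at 485 common positions (10.5%).

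**Figure D2:**
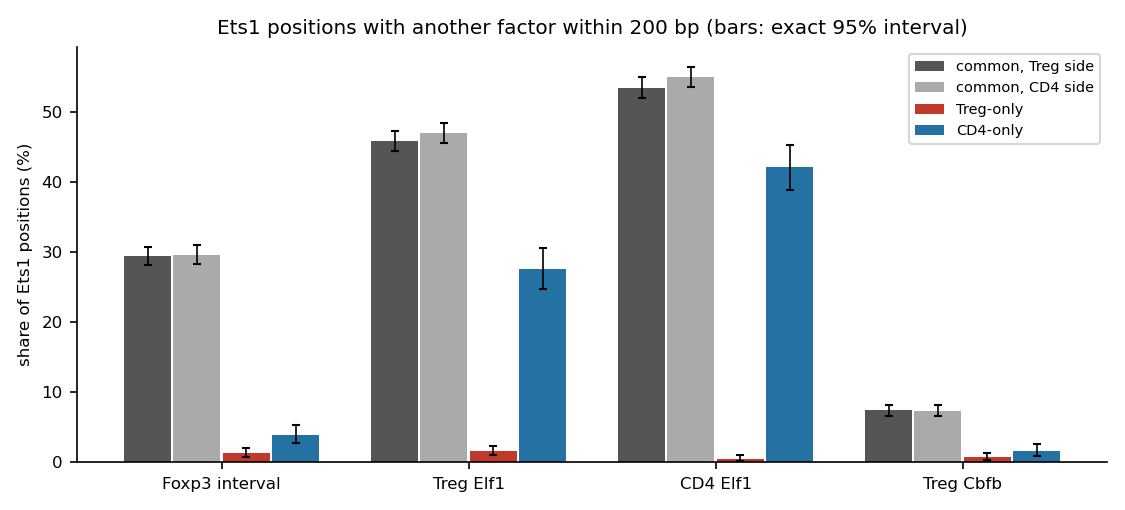
Bars give the percent of each Ets1 group with a Foxp3 interval, a top Treg Elf1, CD4 Elf1 or Treg Cbfb position within 200 bp, and the whiskers the exact 95% interval for counting error. Treg-only positions stayed at or below 1.58% in all 4 categories, while CD4-only positions reached 42.1% for CD4 Elf1 and 3.89% for Foxp3.

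At CD4-only positions Elf1 too was more often missing in Treg than over the CD4 list. CD4 Elf1 of any score within 200 bp, with no Treg Elf1 position within 1 kb, was found at 209 CD4-only positions (22.6%, 19.9 to 25.4), against 9.4% of the CD4 list. The reverse, Treg Elf1 with no CD4 Elf1, was found at 7 of them (0.757%, 0.305 to 1.55), against 0.53% of the list. Treg Elf1 with no CD4 Elf1 was found at 57 Treg-only positions (4.10%, 3.12 to 5.28), against 1.56% of the Treg list. CD4 Elf1 with no Treg Elf1 was found at 81 Treg-only positions (5.83%, 4.66 to 7.20), against 6.86% of the Treg list. At Treg-only positions, Elf1 found in Treg alone was thus also above its share of the list, while Elf1 found in CD4 alone was near its share. The intervals of both patterns overlapped there.

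The shares were also compared within ranges of score rank, since the groups differ in rank. At ranks 1 to 2500, same-cell Elf1 lay beside 39 of 57 CD4-only positions (68.4%, 54.8 to 80.1) and 61.1% of common positions in CD4. At ranks 7501 to 10000 it lay beside 34.0% (29.5 to 38.8) of CD4-only and 43.4% (39.4 to 47.4) of common positions. In Treg the common share stayed between 44.2% and 49.2% over the 4 rank ranges. The Treg-only share was 2 of 19 (10.5%, 1.30 to 33.1) at ranks 1 to 2500 and fell to 5 of 787 (0.635%, 0.207 to 1.48) at ranks 7501 to 10000. At equal rank, Treg-only positions had Elf1 less often than common positions in each of the 4 ranges, with intervals that did not overlap.

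**Figure D3:**
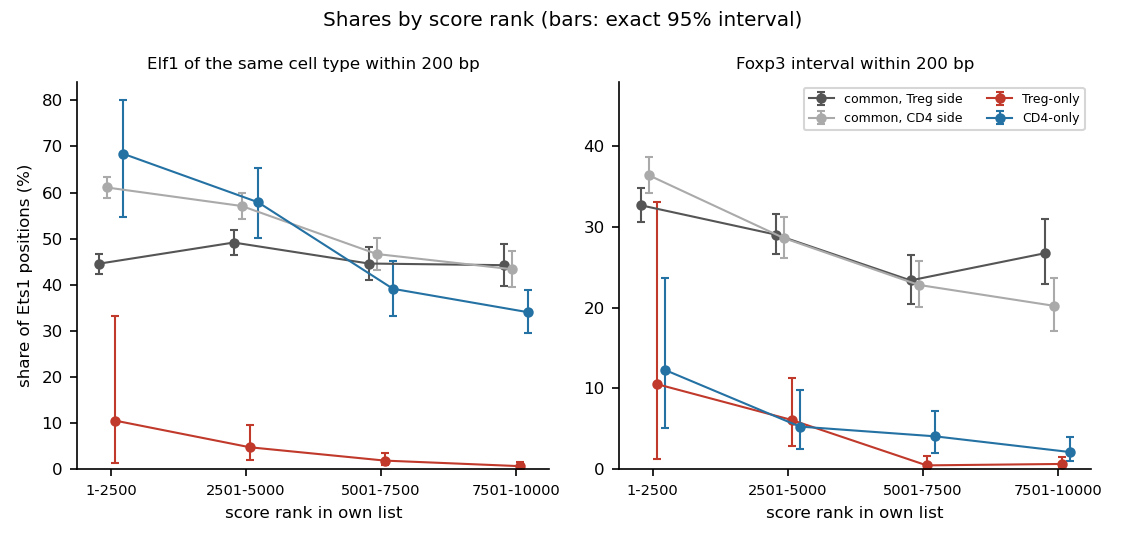
Points give the percent of each Ets1 group with Elf1 of the same cell type (left) or a Foxp3 interval (right) within 200 bp, in 4 ranges of score rank, with exact 95% intervals. On the left the CD4-only points ran from 68.4% to 34.0% and the Treg-only points from 10.5% to 0.635%. The CD4-only intervals overlapped those of the common positions of CD4 except at ranks 7501 to 10000, where the CD4-only share was lower. On the right both one-cell-type groups lay below the common groups in every range.

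Distances to Elf1 were taken only where a top Elf1 position lay within 200 bp, so this limit bounds them. The median distance to the nearest top CD4 Elf1 position was 47 bp at 2541 such common positions counted from the CD4 side. From the Treg side it was 63 bp at 2467 common positions. At 389 CD4-only positions it was 37 bp, and 63.5% of the distances were within 50 bp. At the 22 Treg-only positions with Treg Elf1 within 200 bp the median was 76 bp. Where an Elf1 position of any score from both cell types lay within 200 bp, the median Elf1 rank at 486 CD4-only positions was 9437 in Treg and 6392 in CD4, and the CD4 rank was the better one at 62.8% of them. That share was 62.1% over the CD4 list, so these CD4-only Ets1 positions did not stand apart in the order of their Elf1 ranks.

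Foxp3 was found beside few positions of either one-cell-type group. A Foxp3 interval lay within 200 bp of 1359 common positions (29.4%, 28.1 to 30.8), against 17.5% of the Treg list and 20.2% of the CD4 list. It lay beside 36 CD4-only positions (3.89%, 2.74 to 5.35) and 18 Treg-only positions (1.30%, 0.770 to 2.04). Ranks 10001 to 20000, outside the groups, gave 3.55% in Treg and 4.47% in CD4, and all deposited positions gave 1.32% and 1.31%. The Treg-only share was thus near that of the whole Treg file, and the CD4-only share near that of the next 10000 ranks. The whole Treg file includes the top list, which held 1754 of its 2980 positions at Foxp3 intervals. Ranked by fold enrichment, the shares were 0.0503% for Treg-only, 0.0897% for CD4-only and 18.7% for common positions, and with 5000 positions per list they were 6.59, 7.02 and 34.2%.

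Most positions of all 3 groups were away from Foxp3. No interval lay within 1 kb of 67.1% of common, 95.7% of CD4-only and 98.6% of Treg-only positions, against 78.4% of the Treg list and 76.1% of the CD4 list. Even within 100 kb there was none at 1071 Treg-only positions (77.1%, 74.8 to 79.3) and 538 CD4-only positions (58.2%, 54.9 to 61.4). The share was 38.6% for common positions and 45.1% and 42.5% for the Treg and CD4 lists. Counted from the Foxp3 side, 1408 of the 2886 intervals (48.8%) had a common Treg position within 200 bp, 36 a CD4-only and 19 a Treg-only position. In all, 2364 intervals (81.9%) had at least 1 top Ets1 position of either cell type.

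The Foxp3 share among common positions was highest where Elf1 stood beside Ets1 in both cell types. It was 729 of 1843 (39.6%, 37.3 to 41.8) with Elf1 of both, 32.8% (29.7 to 36.0) with Elf1 of 1 cell type, and 17.9% (16.2 to 19.7) with neither. At CD4-only positions no such order was seen, with 3.96% (1.83 to 7.39), 5.79% (2.93 to 10.1) and 3.15% (1.81 to 5.06), and these intervals overlapped. Of the 18 Treg-only positions at Foxp3 intervals, 14 were among the 1363 Treg-only positions with no top Elf1 position (1.03%, 0.563 to 1.72). The Foxp3 share was 3 of 23 (13.0%, 2.78 to 33.6) with Elf1 of 1 cell type and 1 of 3 with both. By rank, the Foxp3 share of common positions was 32.7% at ranks 1 to 2500 and 26.7% at ranks 7501 to 10000 of the Treg list, while Treg-only positions gave 10.5% (2 of 19) and 0.635%. Among positions within 200 bp of a Foxp3 interval, the median distance to its centre was 56 bp for common positions in Treg and 42 bp in CD4. At the 18 Treg-only positions it was 71 bp, against 59 bp over the Treg list. At the 36 CD4-only positions it was 35 bp, against 43 bp over the CD4 list.

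Cbfb, mapped in Treg, was found beside common positions more often than beside either one-cell-type group. A top Treg Cbfb position lay within 200 bp of 7.41% (6.67 to 8.20) of common positions, against 4.39% of the Treg list and 4.83% of the CD4 list. It lay beside 15 CD4-only positions (1.62%, 0.910 to 2.66) and 11 Treg-only positions (0.792%, 0.396 to 1.41), and these intervals overlapped. Cbfb in CD4 was not analysed here.

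The groups lay differently on the chromosomes. Common positions were densest on chromosome 11, at 38.2 per 10 Mb (34.9 to 41.9, exact Poisson interval), and sparsest on X, at 3.54 (2.70 to 4.57). The lowest autosome was chromosome 14, at 12.4 per 10 Mb. CD4-only positions were also densest on chromosome 11, at 5.42 per 10 Mb (4.19 to 6.89), and sparsest on X, at 0.780 (0.415 to 1.33). The chromosome 11 interval overlapped that of the next densest, chromosome 15, at 4.83 (3.59 to 6.37). The lowest autosome, chromosome 18, was at 1.87, with an interval that overlapped that of X. Treg-only positions varied less between the autosomes. The densest was chromosome 1 at 6.74 per 10 Mb (5.65 to 7.99), the sparsest chromosome 7 at 3.67 (2.77 to 4.77), and chromosome 11 held 5.01. The intervals of chromosomes 1 and 7 did not overlap, and chromosome 1 includes the stretch of 20 Treg-only positions described below.

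The groups also differed on chromosome X, which carried 94 Treg-only positions (6.77% of the group, 5.50 to 8.22), against 2.85% of the Treg list, and 13 CD4-only positions (1.41%, 0.750 to 2.39), against 1.42% of the CD4 list. Of the common positions, 59 (1.28%, 0.974 to 1.64) were on X. The density on X was 1.08 times the density on the autosomes for Treg-only, 0.212 times for CD4-only and 0.193 times for common positions. All deposited positions had 6.97% on X in Treg and 5.93% in CD4, so the Treg-only share was near that of the whole Treg file. When positions were ranked by fold enrichment the share on X was 14.1% for Treg-only and 11.3% for CD4-only positions.

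**Figure D4:**
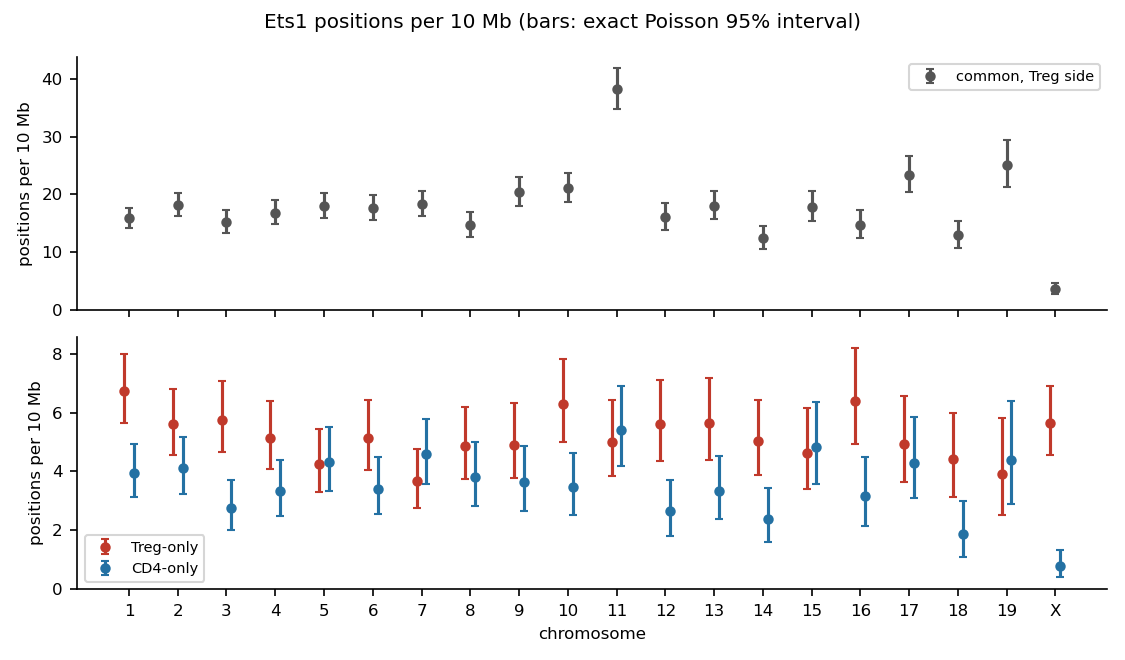
Points give Ets1 positions per 10 Mb on each chromosome with exact Poisson 95% intervals, for common positions counted in Treg (top) and for Treg-only and CD4-only positions (bottom). Chromosome X lay below all autosomes for common positions (3.54) and was lowest for CD4-only positions (0.780), whose interval overlapped that of chromosome 18 (1.87). For Treg-only positions X (5.64) lay among the autosomes.

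The spacing of the groups was measured within their own lists. The median distance to the nearest other position of the same top list was 10021 bp for common positions in Treg, 28785 bp for CD4-only positions and 106386 bp for Treg-only positions. Another position of the list lay within 10 kb of 184 Treg-only positions (13.2%, 11.5 to 15.1), against 45.5% of the Treg list. Such a neighbour was found at 250 CD4-only positions (27.0%, 24.2 to 30.0), against 48.5% of the CD4 list, and at 49.9% of common positions in Treg. A common position lay within 10 kb of 4.32% (3.31 to 5.53) of Treg-only positions, against 31.3% of the Treg list, and of 11.9% (9.88 to 14.2) of CD4-only positions, against 31.8% of the CD4 list. The rule sets part of these values: a Treg-only or CD4-only position can have no position of the other library within 1 kb, which keeps common positions at a distance, and the lists include the common positions themselves. The neighbour share moved with that distance, from 18.7% with 500 bp free to 10.9% with 2 kb free for Treg-only and from 34.0 to 24.0% for CD4-only positions. These shares are given as a description of the groups.

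Few windows held several positions of a one-cell-type group. When the genome was cut into windows of 100 kb, Treg-only positions fell into 1288 windows, 69 of which held 2 or more and 4 of which held 5 or more. CD4-only positions fell into 846 windows, 72 with 2 or more and none with 5. Common positions in Treg filled 2951 windows, 949 of them with 2 or more. The groups held 1389 Treg-only, 925 CD4-only and 4618 common positions, and window counts depend on group size. The densest common windows began at 23600001 on chromosome 13, with 21 common positions, at 32500001 on chromosome 9, with 18, and at 87500001 on chromosome 11, with 14. The chromosome 11 window also held 7 Foxp3 intervals and the chromosome 9 window 2, while the chromosome 13 window held none.

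Of the 846 windows with CD4-only positions, 6 held 3 or more and 1 held 4. Windows with equal counts were taken in the order of chromosome and start. The window beginning at 154500001 on chromosome 4 held 4 CD4-only positions beside 2 common ones of the Treg list, and the numbers of deposited positions there were similar, at 25 in Treg and 30 in CD4. The window beginning at 107500001 on chromosome 5 held 3 CD4-only positions and no top position of Treg. There the deposited Ets1 positions of any score numbered 8 in Treg and 24 in CD4, and the Elf1 positions 5 and 23. A further window on chromosome 5, from 124200001, held 3 CD4-only positions, with 8 Ets1 positions of any score in Treg and 13 in CD4.

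The densest Treg-only windows adjoined each other on chromosome 1. The window beginning at 69600001 held 9 Treg-only positions and the next, from 69700001, held 6. The third in this order lay on X from 7100001 and also held 6. Of all windows with at least 8 top Treg positions, of which there were 94, only 3 held no top CD4 position, and these were the windows beginning at 69500001, 69600001 and 69700001 on chromosome 1, with 12, 12 and 10 Treg positions. Of the 89 windows with at least 8 top CD4 positions, none lacked a top Treg position. The adjoining windows were joined into 1 stretch of 300 kb after their values had been seen.

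This stretch of chromosome 1 held 34 top Treg positions, 20 of them Treg-only and 14 in between, and no top CD4 position. Deposited Ets1 positions of any score numbered 218 in Treg and 46 in CD4, and those at an FDR of at most 0.01 numbered 107 and 7. Elf1 counts over the whole stretch had the same direction, with 12 top positions in Treg against 0 in CD4, 84 against 3 at the FDR limit, and 94 against 32 of any score. The 20 Treg-only positions ran from 69575090 to 69733729, a span of 158639 bp. Their fold enrichment ranged from 0.768 to 41.9 with a median of 4.93, and 9 of them were below 4-fold. The position with the highest score, at 69589154, ranked 2419 with a score of 10.5 and a fold of 41.9, and its nearest CD4 Ets1 position was 1887 bp away. The stretch held 1 Foxp3 interval and 4 top Cbfb positions, and 1 of the 20 positions lay within 200 bp of that interval. At the 20 positions themselves Elf1 hardly differed: Elf1 of any score lay within 200 bp of 4 in Treg and of 3 in CD4.

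The X window between 7100001 and 7200000 was less one-directional. It held 9 top Treg positions against 1 in CD4, and 39 against 22 of any score. Elf1 had 5 top positions in Treg and 4 in CD4, 24 and 16 at the FDR limit, and 25 and 38 of any score. Cbfb in Treg had 17 top positions, and there were 2 Foxp3 intervals. The 6 Treg-only positions lay between 7143843 and 7170160, with a median fold of 12.3 (3.71 to 22.0) and ranks from 5906 to 9975. Elf1 of any score lay within 200 bp of 0 of these 6 in Treg and of 2 in CD4.

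**Figure D5:**
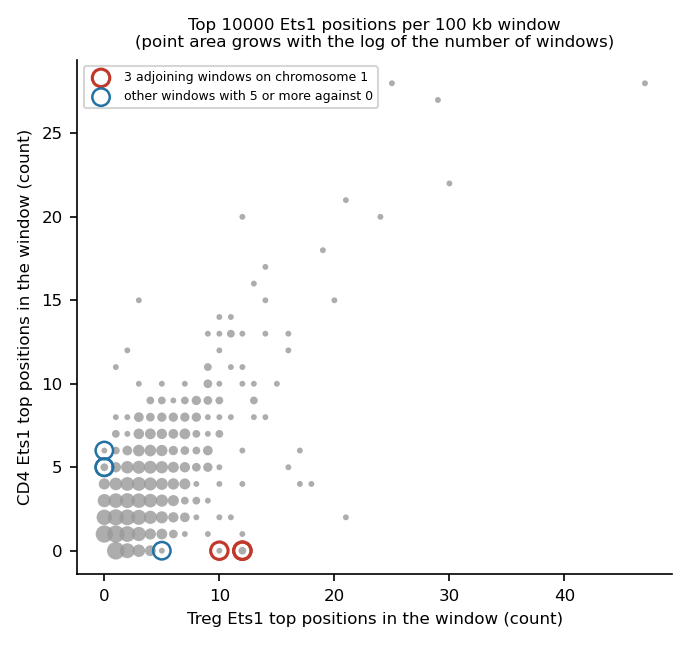
Each point stands for the 100 kb windows with a given number of top Ets1 positions in Treg (horizontal axis) and in CD4 (vertical axis), and its area grows with the number of such windows. The circled windows held 5 or more positions in 1 list and 0 in the other: the adjoining windows on chromosome 1 at 12, 12 and 10 Treg positions, and 4 further windows at 5 or 6.

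Among the single positions, the Treg-only position with the highest score lay on chromosome 7 at 105251873. It ranked 433 in Treg, with a score of 20.4 and a fold of 7.13, and the nearest CD4 Ets1 position was 63463 bp away. No Elf1 position lay within 10 kb, and the nearest Foxp3 interval was 477077 bp away. Of the other named Treg-only positions away from Foxp3, the one at 23215763 on chromosome 19 ranked 694 with a fold of 5.99 and had strong Elf1 at 568 bp in Treg (28.5-fold) and at 556 bp in CD4 (27.1-fold). The remaining ones, on chromosomes 18, 13 and 15, ranked 1150, 1769 and 1783, with folds of 7.32, 7.59 and 2.30. None of the 5 had an Elf1 position of the top list within 200 bp. The Treg-only position with the highest score at a Foxp3 interval, at 11576967 on chromosome 2, was 19 bp from the interval. It ranked 870 with a fold of 19.3, and Elf1 lay at 127 bp in Treg (20.4-fold, Elf1 rank 58873) and at 90 bp in CD4 (9.39-fold, Elf1 rank 40615), both outside the top Elf1 lists.

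The leading CD4-only positions more often had Elf1 beside them. The one with the highest score, at 65011570 on chromosome 14, ranked 406 in CD4 with a fold of 8.23. CD4 Elf1 lay 60 bp from it at 16.2-fold (Elf1 rank 4349), the nearest Treg Elf1 position was 9679 bp away, and the nearest Treg Ets1 position 5010 bp away. At 87749143 on chromosome 11 (rank 430, 13.0-fold) CD4 Elf1 lay at 18 bp with 10.2-fold (Elf1 rank 6735) and Treg Elf1 at 27 bp with 3.15-fold (Elf1 rank 28024), while Treg Ets1 was absent for 30008 bp. At 73909753 on chromosome 14 (rank 543, 7.38-fold) Elf1 was strong in both cell types, at 61 bp in Treg (12.2-fold, Elf1 rank 1914) and 63 bp in CD4 (21.5-fold, Elf1 rank 964). At the other named positions, 107783196 on chromosome 5 and 62937203 on chromosome 9, CD4 Elf1 lay at 57 and 54 bp with folds of 1.66 and 2.76 and Elf1 ranks of 33047 and 13498. The CD4-only position with the highest score at a Foxp3 interval, at 175362719 on chromosome 1, lay inside the interval. It had a fold of 29.5, CD4 Elf1 at 143 bp (10.3-fold, Elf1 rank 12740), and no Treg Ets1 position for 1853 bp.

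The highest common positions had nearly the same ranks in both lists. The one at 5802625 on chromosome 19 ranked 1 in Treg, with a fold of 37.6, and its partner 8 bp away ranked 1 in CD4 with 48.8. At 87236454 on chromosome 11 the ranks were 4 in Treg and 5 in CD4 with folds of 43.7 and 36.2, and at 55797789 on chromosome 12 they were 5 and 4 with folds of 96.5 and 99.1. Both of these lay inside a Foxp3 interval. At the other named positions Elf1 and Cbfb lay close to Ets1. At 5860702 on chromosome 3 the folds were 9.92 in Treg and 12.1 in CD4, with Elf1 of both cell types within 21 bp and Cbfb within 2 bp. At 70039222 on chromosome 4 the folds were 2.25 and 2.42, and the Elf1 positions of both cell types and the Cbfb position all lay within 1 bp.

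The ranks of the common pairs were set side by side. Each of the 4618 Treg positions was paired with its nearest top CD4 position, which gave 4562 distinct CD4 partners at a median of 48 bp. Spearman's rho between the ranks was 0.47 over these pairs, which share the 2 libraries and are not replicates. The pairs hold only ranks within the first 10000 of both lists, since the rule leaves out positions whose partner ranked lower, so this value describes the kept pairs alone. Both ranks were within the first 1000 at 538 pairs. A rank within the first 1000 went with one over 5000 in the other list at 71 pairs in the direction of Treg and 67 in the direction of CD4.

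Common positions that ranked higher in CD4 had Elf1 more often than those that ranked higher in Treg. At 748 pairs ranked more than 2500 places higher in CD4, CD4 Elf1 lay beside 63.5% (59.9 to 67.0), Treg Elf1 beside 54.1% (50.5 to 57.8) and a Foxp3 interval beside 33.2% (29.8 to 36.7). At 932 pairs ranked more than 2500 places higher in Treg, the shares were 42.4% (39.2 to 45.6), 36.9% (33.8 to 40.1) and 24.7% (21.9 to 27.6). The 2938 pairs with closer ranks lay between, at 54.4, 46.5 and 30.0%. Within the common group, as between the one-cell-type groups, Elf1 was thus more frequent on the CD4 side.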

How the data were processed

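Bowtie 0.12.7 aligned the reads to mm9, per the submitters' processing notes. The sources used here do not give the caller, its thresholds, the control or the library depths. Per the file headers, each deposited list gives a score, a false discovery rate (a q-value) and a fold enrichment (a ratio) per position. The Foxp3 intervals were called on combined replicates, per the labels, and carry no score.

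Positions were ranked by the authors' deposited score, and the rule in the opening of the results was applied. The members and all lists were chosen with earlier results of these data known. All top positions had a q-value far below the 0.01 limit in the authors' lists. Densities used mm9 chromosome lengths. The functions were tested on simulated data. Named positions were the 5 highest scores of each one-cell-type group away from Foxp3, the highest at Foxp3, the 5 common positions with the smallest sum of ranks, and the 3 densest 100 kb windows per group, with ties taken by the lowest chromosome and start. With no mm9 annotation or genome used here, positions carry no gene names or sequences, and the planned gene lists and markers were not counted. The CD4 Cbfb library, called low in quality by its label, and the inputs were not analysed here. Alternatives changed list length, ranking column, distances and FDR limits. Calculations ran under Python 3.11.15 with scipy 1.17.1, pandas 2.3.3, numpy 2.4.6 and matplotlib 3.10.9.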

Additional observations from a re-analysis of the deposited data

How the results depend on the processing

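Of 150 values under alternatives, 85 stayed near the main value and 65 moved. Near means within 1.5 times the main percentage for the groups' shares of their lists and within the main 95% interval for the other shares. Some of the 85 could not move. A changed common distance leaves the Treg-only and CD4-only groups as they were, and a changed one-sided rule leaves the common group as it was. The causes were not tested. With 5000 positions per list, Treg-only was 3.34% of its list and CD4-only 4.56%. Foxp3 shares were then 34.2% (common), 6.59% (Treg-only) and 7.02% (CD4-only), same-cell Elf1 shares 49.7, 5.39 and 60.5%, the CD4-only share on X 0.439% and its share with a neighbour 17.1%. With 20000 positions the same values were 30.2 and 21.1% (list shares), 24.0, 0.431 and 1.23% (Foxp3), 41.0, 0.729 and 16.9% (Elf1), 3.56% (X) and 34.1% (neighbour), and 18.6% of Treg-only positions had a neighbour. Ranking by fold enrichment gave common 10.8%, Treg-only 59.6% and CD4-only 44.6% of their lists, Foxp3 18.7, 0.0503 and 0.0897%, Elf1 28.3, 0.134 and 1.91%, X 14.1% (Treg-only) and 11.3% (CD4-only), neighbours 9.81 and 11.6%. Of the 12 named Treg-only and CD4-only positions 10, and of the 5 named common ones 2, were outside the first 10000 by fold.

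With a common distance of 500 bp, common positions had Foxp3 at 27.7% and Elf1 at 42.5%. With 500 bp free of the other library, neighbours were at 18.7% (Treg-only) and 34.0% (CD4-only), and CD4-only Elf1 at 38.7%; with 2 kb free, neighbours were at 10.9 and 24.0%. Counting only positions of the other library at an FDR of at most 0.01 gave 24.2% Treg-only and 19.7% CD4-only, with Foxp3 at 2.44 and 7.22%, Elf1 at 4.55 and 46.3%, and neighbours at 21.3 and 31.5%. Common positions were at 22.4% inside a Foxp3 interval and at 31.3% within 500 bp of one. Same-cell Elf1 for common, Treg-only and CD4-only was 71.4, 9.22 and 74.7% at the FDR limit, 53.9, 2.45 and 64.6% with 20000 Elf1 positions and 32.3, 0.864 and 38.5% within 100 bp, and for common 54.7% within 500 bp. Neighbours within 5 kb were at 7.92 and 15.1%, within 20 kb at 21.8 and 42.2%. Under every alternative run, the value for CD4-only was above that for Treg-only in Elf1, Foxp3 and neighbour shares and below it on X. With 5000 positions the CD4-only and Treg-only intervals overlapped for Foxp3 (4.06 to 11.1 against 3.33 to 11.5) and neighbours (12.5 to 22.6 against 7.96 to 18.6). By fold the Foxp3 intervals also overlapped, with counts of 4 of 4457 CD4-only and 3 of 5964 Treg-only positions. Treg-only was the larger share of its list in 9 of 10 alternatives. Leaving out chromosome X or the unplaced contigs, chosen after seeing the data, moved none of 24 values. No paired analysis was possible because each Ets1 group had 1 library. Depth and control are unknown, so a position missing from a file is not shown to be unbound.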

Other observations

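A few common positions coincided in all 5 lists of single positions. A position of both Ets1 and both Elf1 lists and of the Treg Cbfb list, each among the 10000 highest scores of its library, lay within 5 bp of 3 of the 100 highest Treg Ets1 positions. All 3 had a Treg Ets1 fold below 4 (1.65 to 3.41), and these were the only positions below 4-fold among those 100. Over all 4618 common positions 8 coincided in this way, with folds from 1.65 to 7.78, and 1 of them lay at a Foxp3 interval. No Treg-only or CD4-only position did, which their rule fixes.

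Windows of 100 kb with at least 5 top positions in 1 cell type and none in the other were rare outside the stretch on chromosome 1. In Treg there were 4 such windows among 313 with at least 5 top positions, the one outside chromosome 1 beginning at 47100001 on chromosome 17 with 5 positions. In CD4 there were 3 among 351. They began at 66300001 on chromosome 15 with 5 positions, at 71900001 on chromosome 2 with 5 and at 54400001 on X with 6. With a limit of 3 positions, the counts were 39 of 1046 windows in Treg and 58 of 1117 in CD4.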
